A study of Homo sapiens and Mus musculus with 24 samples.

Results

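Transcript levels of 10 genes of the epidermal growth factor (EGF) family were followed in human Caco-2 cells and in mouse colonic epithelial cells. They were the receptors EGFR, ERBB2 and ERBB3, the ligands AREG, EREG, TGFA, HBEGF, BTC and EPGN, and the receptor inhibitor ERRFI1. The genes were taken by name and not by their values, and all 10 had an identifier among the 58051 human and 29307 mouse gene identifiers. Total RNA was sequenced to ask how loss of the DNA methyltransferase DNMT3A, and return of one of its isoforms, changes the transcriptome of intestinal epithelium.

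Caco-2 is a colorectal adenocarcinoma line that takes on features of enterocytes. WT cells were unedited. ΔDNMT3A was derived from them with CRISPR-Cas9 and a guide against both isoforms, followed by limiting dilution to a clonal line. DNMT3A1 and DNMT3A2 were made from ΔDNMT3A by integrating the TY1-tagged long or short isoform under a CMV promoter, with puromycin selection and a further cloning step. Every Caco-2 group other than WT was therefore grown from a clone, and clone and genotype cannot be told apart. Analysed were 4 libraries of WT, 4 of ΔDNMT3A, 3 of DNMT3A1 and 4 labelled DNMT3A2. DNMT3A1 replicate 3 was not analysed here. The mice were 12 weeks old and at steady state, with a floxed Dnmt3a allele, made on C57BL/6J, in both groups. Dnmt3aΔIEC mice also carried Villin-Cre, from a deleter line on a mixed C57BL/6J and SJL/J background, which deletes the allele in intestinal epithelium, and fl/fl mice were the controls. EpCAM-positive epithelial cells of the colon were used from 4 mice per group, whose sex the labels do not give. The labels do not say whether the libraries of a Caco-2 line came from separate cultures, so the p-values measure the spread between these libraries, which may be technical.

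EGF family ligands are made as membrane-anchored precursors, and the protease ADAM17 cuts many of them free. They bind the extracellular part of EGFR, which then pairs with another receptor of the family and activates the RAS-ERK and PI3K-AKT pathways. ERBB2 has no known ligand and acts as a partner, while ERBB3 has little kinase activity of its own and couples its partners to PI3K. ERRFI1, also called MIG6, binds the EGFR kinase domain, inhibits it and promotes receptor turnover. In the colon these genes support growth of the crypt epithelium and its repair after injury, and AREG and EREG are the ligands most often named in colorectal tumours.

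Between 22104408 and 42161299 reads were counted on genes in each of the 15 Caco-2 libraries, and between 16943626 and 24921248 in each of the 8 mouse libraries. Levels are given as CPM, counts scaled by library size after TMM adjustment, and a gene at 3 counts, taken as the floor, had 0.0717 to 0.138 CPM in Caco-2 cells and 0.121 to 0.186 CPM in mice. The floors cover counting error only, while the 95% intervals of fold changes come from the edgeR fits and include the spread between libraries. DNMT3A stood at 64.6 ± 2.27 CPM in WT (SD, n = 4) and at 20.7 ± 1.22 CPM in ΔDNMT3A (n = 4). DNMT3A1 had 38.02 ± 1.23 CPM (n = 3), against 21.9 ± 1.40 CPM in the libraries labelled DNMT3A2 (n = 4). The last group was not called against ΔDNMT3A (log2 fold change 0.07, adjusted p = 0.272 by the quasi-likelihood method of edgeR, Benjamini-Hochberg). These libraries are therefore called by their label throughout. The study reported by immunoblot that DNMT3A protein was lost in ΔDNMT3A and that each isoform was present again in its line. Protein was not measured here. Mouse Dnmt3a had 93.9 ± 7.70 CPM in fl/fl and 46.1 ± 3.30 CPM in Dnmt3aΔIEC (SD, n = 4 each), a sum over all exons. The epithelial genes EPCAM, CDH1, KRT8, KRT18, KRT19, VIL1 and CDX2 were at 83.7 CPM or more in every Caco-2 library, while CDX1 and LGALS4 were at most 1.52 CPM. All 10 epithelial markers of the list were at 102 CPM or more in every mouse library. The immune marker PTPRC was at most 0.0282 CPM in Caco-2 libraries and 1.37 to 4.89 CPM in mouse libraries.

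In WT cells the ligand AREG was by far the highest family transcript per length of gene, and 3 of the 6 ligands were close to or under the floor. Levels between genes are compared as CPM per kilobase of the exons counted. AREG had 108 ± 2.67 CPM per kilobase, EREG 18.8 ± 0.565, ERBB3 17.1 ± 0.440, ERBB2 15.9 ± 0.641, ERRFI1 9.48 ± 0.521, HBEGF 3.34 ± 0.281 and EGFR 2.89 ± 0.118 (SD, n = 4). The ranges of neighbours in this order did not overlap. BTC followed with 0.0556 ± 0.0169 and TGFA with 0.0219 ± 0.0154 CPM per kilobase (SD, n = 4), and their ranges overlapped. BTC was held by 3 to 14 counts per Caco-2 library and TGFA by 0 to 6. EPGN had 0 counts in all but 1 Caco-2 library, where 1 read was counted. Of the family members outside the 10 genes, EGF had 2 to 21 counts and the receptor ERBB4 0 to 8 counts per Caco-2 library.

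The order changed between the lines, and the receptors made up different mixtures. In ΔDNMT3A, ERBB2 and ERBB3 fell below ERRFI1 to 8.26 ± 0.208 and 7.85 ± 0.467 CPM per kilobase (SD, n = 4), with overlapping ranges. In DNMT3A1, EREG stood at 8.44 ± 0.403 CPM per kilobase (SD, n = 3), below ERBB3, ERRFI1 and ERBB2. In the libraries labelled DNMT3A2, AREG reached 200.1 ± 3.596 and EREG 35.4 ± 0.807 CPM per kilobase (SD, n = 4). The 3 receptors summed to 35.9 ± 0.993 CPM per kilobase in WT and 20.0 ± 0.566 in ΔDNMT3A. The sum was 32.5 ± 0.416 in DNMT3A1 and 23.8 ± 0.343 in the libraries labelled DNMT3A2. EGFR made up 8.08% ± 0.461 of that sum in WT and 19.4% ± 1.11 in ΔDNMT3A (SD, n = 4 each). The ERBB3 share was 47.6% ± 0.335 in WT and 39.3% ± 1.36 in ΔDNMT3A. It was 50.9% ± 0.453 in DNMT3A1 and 50.9% ± 1.11 in the libraries labelled DNMT3A2.

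**Figure D1:**
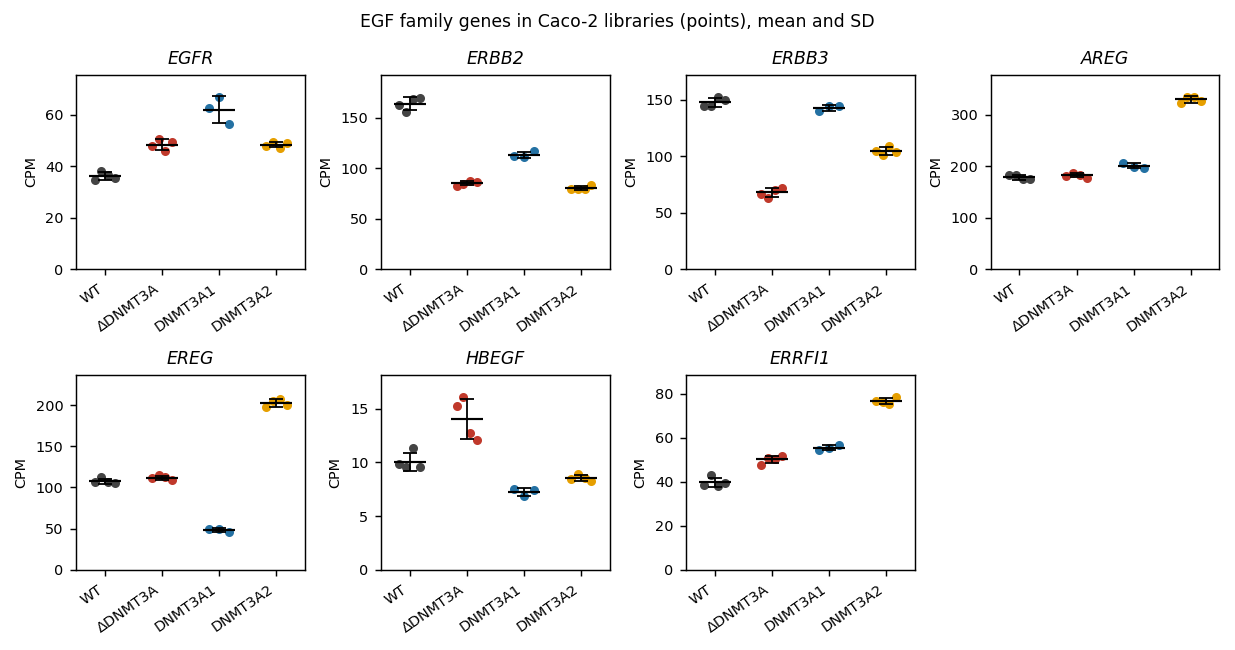
Levels in CPM (vertical axes, each starting at 0) of the 7 EGF family genes above the floor in Caco-2 libraries of WT, ΔDNMT3A, DNMT3A1 and the group labelled DNMT3A2; points are libraries, horizontal lines means and bars SDs. ERBB2 and ERBB3 were lower in every ΔDNMT3A library than in any WT library, and EREG was lowest in the 3 DNMT3A1 libraries and highest in the 4 labelled DNMT3A2.

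Comparing ΔDNMT3A with WT asks what followed loss of DNMT3A in this clone. ERBB2 and ERBB3 transcripts were about halved in level, EGFR, HBEGF and ERRFI1 rose by less, and AREG and EREG did not change past the threshold. Of the 10 genes, 7 passed the filter on low counts, 3 of them were higher and 2 lower at an adjusted p under 0.05, and the same 5 had groups that did not overlap. Of all 16654 genes tested, 31.2% were higher and 31.0% lower, 62.2% passed that threshold in either direction and 55.4% had groups that did not overlap, so 5 of 7 is close to what any gene showed. Only the size and direction of each change are described here.

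The receptors moved in opposite directions. ERBB3 (ENSG00000065361; GRCh38 chromosome 12, 56079857 to 56103505, plus strand) had 145, 145, 152 and 149 CPM in WT and 66.8, 62.9, 70.1 and 72.1 CPM in ΔDNMT3A. Every ΔDNMT3A library was below every WT library, a log2 fold change of -1.13 (SE 0.035, adjusted p = 1.64e-18 by the quasi-likelihood method of edgeR, Benjamini-Hochberg), or 2.19-fold lower. ERBB2 (ENSG00000141736; chromosome 17, 39687914 to 39730426, plus strand) had 162, 156, 169 and 170.1 CPM in WT and 82.8, 84.0, 87.5 and 86.4 CPM in ΔDNMT3A. The groups were again apart, with a log2 fold change of -0.96 (SE 0.031, adjusted p = 3.59e-18, same test), or 1.94-fold lower. EGFR (ENSG00000146648; chromosome 7, 55019021 to 55211628, plus strand), the receptor that binds the ligands measured here, had 34.8, 38.1, 36.5 and 35.4 CPM in WT and 47.7, 50.7, 45.98 and 49.2 CPM in ΔDNMT3A. It was higher in all 4 ΔDNMT3A libraries, by 0.41 on the log2 scale (SE 0.040, adjusted p = 4.22e-09, same edgeR test), or 1.33-fold. ERBB2 overlaps PGAP3 and MIEN1 on the other strand and EGFR overlaps EGFR-AS1, and the human counts were made by strand.

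Of the ligands, HBEGF (heparin-binding EGF-like growth factor) changed in ΔDNMT3A. It had 9.86, 9.53, 11.3 and 9.57 CPM in WT and 15.2, 16.1, 12.8 and 12.1 CPM in ΔDNMT3A, with no overlap. The log2 fold change was 0.48 (SE 0.083, adjusted p = 2.4e-05, edgeR, Benjamini-Hochberg), or 1.39-fold. ERRFI1, the inhibitor, had 38.5, 42.9, 38.1 and 39.3 CPM in WT and 47.8, 50.8, 50.2 and 51.7 CPM in ΔDNMT3A. It was higher in every ΔDNMT3A library, with a log2 fold change of 0.33 (SE 0.040, adjusted p = 1.82e-07, same test), or 1.25-fold.

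AREG and EREG, which encode amphiregulin and epiregulin, lie 56383 bases apart on the plus strand of chromosome 4. The bases before their RefSeq starts are shown because their transcripts moved together in some lines and apart in another. Both stretches are 250 bases of GRCh38.p14 read from RefSeq, with CpG dinucleotides, the sites that DNMT3A can methylate, in capitals. No methylation values were analysed here. AREG is chr4:74444886-74445135 (plus strand) and EREG is chr4:74364895-74365144 (plus strand).
AREG: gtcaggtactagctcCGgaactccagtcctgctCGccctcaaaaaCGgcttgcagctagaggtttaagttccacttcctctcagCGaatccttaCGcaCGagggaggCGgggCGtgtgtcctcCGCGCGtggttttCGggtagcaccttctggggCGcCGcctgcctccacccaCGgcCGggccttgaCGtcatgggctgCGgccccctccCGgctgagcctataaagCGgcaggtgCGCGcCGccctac
EREG: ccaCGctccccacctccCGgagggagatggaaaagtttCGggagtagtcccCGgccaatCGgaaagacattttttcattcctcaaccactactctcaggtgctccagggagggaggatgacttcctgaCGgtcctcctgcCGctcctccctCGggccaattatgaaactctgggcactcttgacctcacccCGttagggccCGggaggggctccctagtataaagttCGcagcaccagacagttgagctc

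The AREG stretch held 23 CpGs and the EREG stretch 11, where 25.8% and 50.3% of 35093 RefSeq promoter windows of the same length held at least as many (median 11). The motifs named here were searched on both strands. TATAAA was found in each, starting 29 bases before the AREG start and 32 before the EREG start, and in 10.7% of all windows. The cAMP response element TGACGTCA was found in AREG, 65 bases before the start, and in 1.65% of all windows. Its centre is a CpG. CCAAT was found in EREG, at 196 and 95 bases before the start, and in 32.0% of windows. GGGCGG was found in AREG, on the other strand 9 bases before the start, and in 42.6% of windows. These are matches of letters and were not tested as binding sites. Of the 10 genes, 9 had an entry in the promoter table, and only these 2 are printed.

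AREG (ENSG00000109321; GRCh38 chromosome 4, 74445134 to 74455009) had 183, 182, 175 and 175 CPM in WT and 181, 187, 183 and 178 CPM in ΔDNMT3A. EREG (ENSG00000124882; chromosome 4, 74365143 to 74388751) had 106, 112, 107 and 105 CPM in WT and 111, 115, 112 and 109 CPM in ΔDNMT3A. The groups overlapped for both genes. The log2 fold changes were 0.02 for AREG (95% interval -0.04 to 0.07, adjusted p = 0.596) and 0.05 for EREG (95% interval -0.01 to 0.11, adjusted p = 0.175), from the same edgeR test.

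**Figure D2:**
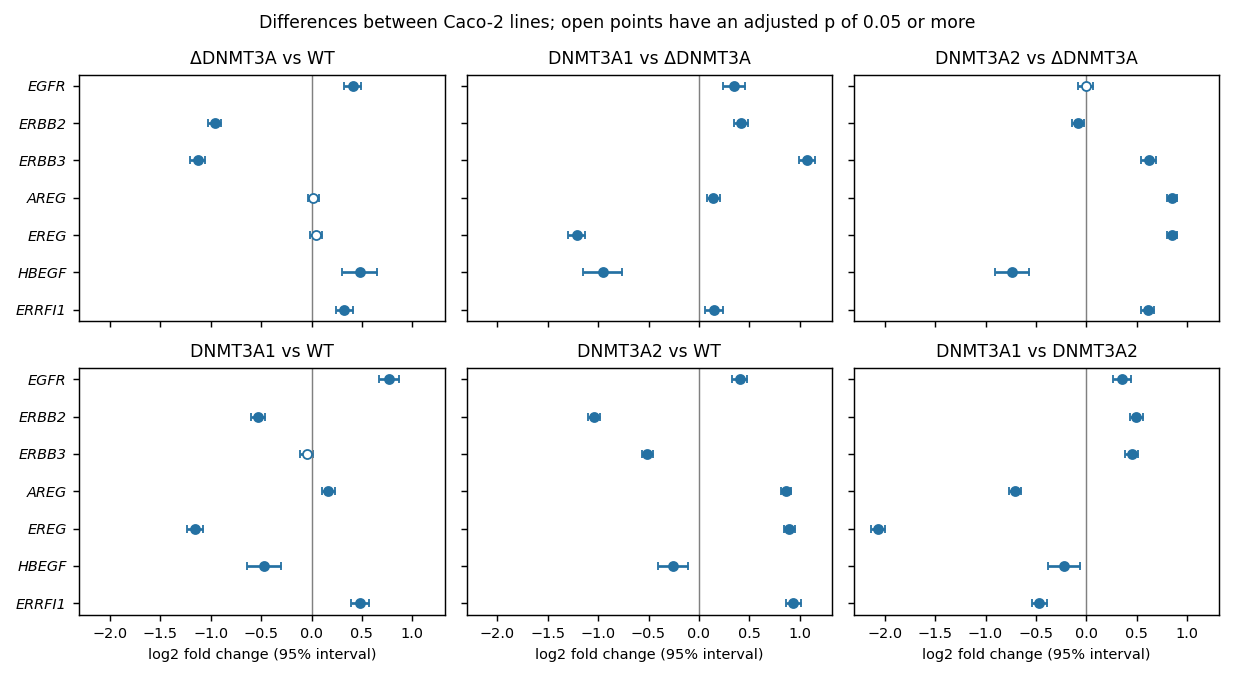
Log2 fold changes (horizontal axes) with 95% intervals of 7 EGF family genes in the 6 comparisons of Caco-2 lines; filled points passed an adjusted p of 0.05 in edgeR's quasi-likelihood test and open points did not. EREG spans the widest range, from -2.07 in DNMT3A1 against the libraries labelled DNMT3A2 to 0.90 in the latter against WT.

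Comparing DNMT3A1 with ΔDNMT3A asks what changed once the long isoform was put back and the cells were cloned again. ERBB3 returned to the WT level and ERBB2 part of the way, EGFR rose further from WT, and EREG and HBEGF fell below WT. Of the 8 genes tested 5 were higher and 2 lower, beside 30.4% and 30.3% of 16860 genes and 60.7% in either direction, and the same 7 had groups that did not overlap, beside 59.8%. These comparisons and those of the libraries labelled DNMT3A2 share the ΔDNMT3A and WT libraries.

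ERBB3 had 139.9, 144 and 145 CPM in DNMT3A1, above every ΔDNMT3A library. It rose by 1.07 on the log2 scale against ΔDNMT3A (SE 0.040, adjusted p = 1.1e-14, edgeR, Benjamini-Hochberg), or 2.11-fold. Against WT it differed by -0.05 (95% interval -0.11 to 0.01, adjusted p = 0.169) and the groups overlapped. ERBB2 had 112, 112 and 117 CPM in DNMT3A1. These lay between the other groups, 0.42 above ΔDNMT3A (SE 0.033, adjusted p = 1.5e-09) and 0.53 below WT on the log2 scale (log2 fold change -0.53, adjusted p = 5.58e-13, same edgeR test). EGFR had 62.4, 66.8 and 56.5 CPM in DNMT3A1, the highest of the 4 lines. It was 0.35 above ΔDNMT3A (SE 0.052, adjusted p = 7.88e-06) and 0.77 above WT (adjusted p = 5.66e-13), both log2 fold changes from edgeR.

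EREG had 49.7, 49.4 and 45.6 CPM in DNMT3A1, under every other Caco-2 library. It fell by 1.22 on the log2 scale against ΔDNMT3A (SE 0.039, adjusted p = 1.29e-15, edgeR, Benjamini-Hochberg), or 2.32-fold, and its log2 fold change against WT was -1.16 (adjusted p = 7.87e-19). AREG, its neighbour, had 207, 199 and 197 CPM in the same 3 libraries. All were above the ΔDNMT3A and WT libraries, by 0.14 (adjusted p = 0.000442) and 0.17 (adjusted p = 4.63e-05) on the log2 scale. HBEGF had 7.49, 6.86 and 7.44 CPM. It was below ΔDNMT3A by a log2 fold change of -0.96 (SE 0.093, adjusted p = 2.42e-08) and below WT by -0.47 (adjusted p = 1.54e-05, same test). ERRFI1 had 54.5, 55.2 and 56.7 CPM, with log2 fold changes of 0.15 against ΔDNMT3A (adjusted p = 0.00559) and 0.48 against WT (adjusted p = 7.86e-10, same test). Against WT, 3 of 7 genes tested were higher and 3 lower in DNMT3A1, beside 32.6% and 32.7% of 17029 genes and 65.3% in either direction. The 6 groups did not overlap, beside 63.4%.

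In the libraries labelled DNMT3A2, AREG and EREG rose together, ERRFI1 rose with them, ERBB3 rose part of the way to WT and HBEGF fell. ERBB2 and EGFR stayed close to ΔDNMT3A. Of 8 genes tested 4 were higher and 2 lower than in ΔDNMT3A, beside 33.8% and 34.1% of 16431 genes and 67.9% in either direction. For 5 genes the groups did not overlap, beside 61.4%. Against WT all 7 genes tested were called, 4 higher and 3 lower, beside 34.3% and 34.4% of 16360 genes and 68.7% in either direction. None of the 7 overlapped, beside 62.2% of genes without overlap. DNMT3A transcripts themselves were not higher in these libraries than in ΔDNMT3A, as given above.

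AREG had 322, 334, 335 and 328 CPM and EREG 197, 206, 207 and 200.5 CPM in the libraries labelled DNMT3A2. Each of these values was above every library of the other 3 lines. The log2 fold changes against ΔDNMT3A were 0.85 for AREG (SE 0.024, adjusted p = 3.03e-19) and 0.85 for EREG (SE 0.026, adjusted p = 1.51e-18), both about 1.80-fold, from edgeR, Benjamini-Hochberg. Against WT they were 0.87 and 0.90 (adjusted p = 1.93e-23 and 4.92e-23). ERRFI1, which ERK signalling is known to induce, had 76.7, 76.3, 75.2 and 78.5 CPM, 0.61 above ΔDNMT3A (SE 0.032, adjusted p = 5.12e-14) and 0.94 above WT (adjusted p = 3.73e-20) on the log2 scale. HBEGF had 8.46, 8.91, 8.498 and 8.23 CPM, with log2 fold changes of -0.74 against ΔDNMT3A (adjusted p = 3.23e-08) and -0.26 against WT (adjusted p = 0.00211, same test).

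ERBB3 had 104, 101, 109 and 104 CPM in these libraries, between ΔDNMT3A and WT with no overlap. It was 0.62 above ΔDNMT3A (SE 0.037, adjusted p = 4.39e-13) and its log2 fold change against WT was -0.51 (adjusted p = 1e-16, edgeR, Benjamini-Hochberg). ERBB2 had 79.2, 80.0, 79.6 and 83.1 CPM. Its groups overlapped with ΔDNMT3A, and the log2 fold change of -0.09 passed the threshold (adjusted p = 0.0127) but not once the trend with GC content was removed (-0.01, adjusted p = 0.674). Against WT it was -1.04 (adjusted p = 9.78e-24). EGFR had 47.7, 49.6, 47.2 and 49.1 CPM, and its difference from ΔDNMT3A was -0.01 (95% interval -0.08 to 0.07, adjusted p = 0.897, same edgeR test). Against WT it was 0.40 higher (adjusted p = 9.87e-11).

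The difference between the isoform lines was tested directly. All 3 receptors were higher in DNMT3A1 than in the libraries labelled DNMT3A2, and AREG, EREG, HBEGF and ERRFI1 were lower, beside 34.5% of 16637 genes higher, 33.9% lower and 68.5% in either direction. The same 7 genes had groups that did not overlap, beside 66.6% of genes. EREG differed most, with a log2 fold change of -2.07 (SE 0.034, adjusted p = 3.53e-25, edgeR, Benjamini-Hochberg), or 4.20-fold lower in DNMT3A1. AREG was 1.64-fold lower (-0.71, adjusted p = 2.17e-17) and ERRFI1 1.38-fold lower (-0.46, adjusted p = 6.69e-12). ERBB2, ERBB3 and EGFR were 0.50, 0.45 and 0.35 higher in DNMT3A1 on the log2 scale (adjusted p = 2.33e-13, 7.23e-13 and 1.17e-07). The log2 fold change of HBEGF was -0.22 (SE 0.079, adjusted p = 0.0158). Its call was lost with DESeq2 (adjusted p = 0.0794) and without DNMT3A1 replicate 2 (adjusted p = 0.0695).

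The relation of EREG to AREG was described within each library, a ratio chosen after the values were seen. EREG had 60.2% ± 1.54 of the CPM of AREG in WT (SD, n = 4). The share was 61.4% ± 0.131 in ΔDNMT3A (n = 4) and 61.5% ± 0.322 in the libraries labelled DNMT3A2 (n = 4). In DNMT3A1 it had 24.0% ± 0.863 (n = 3). The libraries of the first 3 groups ranged from 58.0% to 61.9%, although both transcripts were about 1.8-fold higher in 1 of these groups, and the 3 DNMT3A1 libraries from 23.1% to 24.8%.

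**Figure D3:**
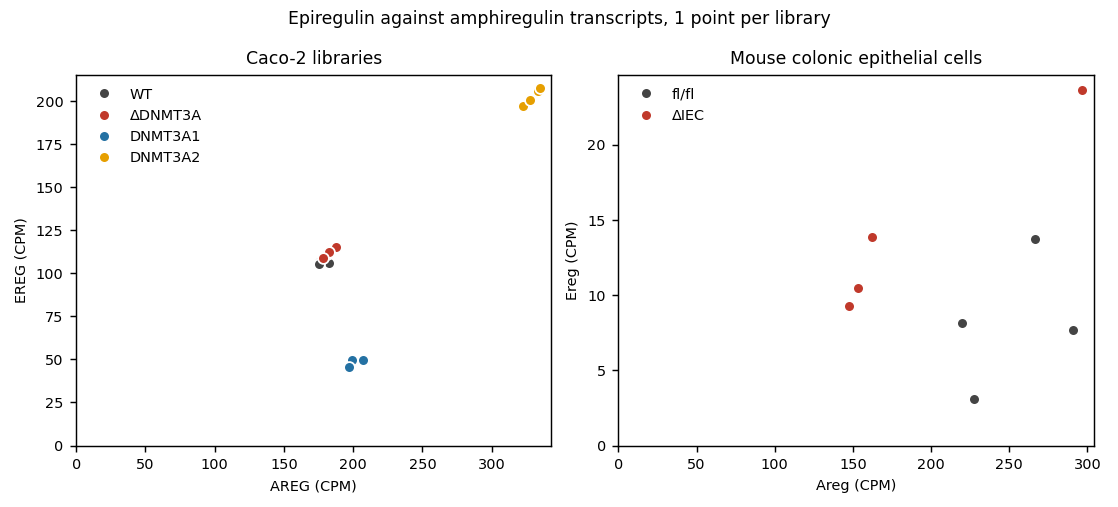
EREG against AREG (axes in CPM), each point a library, in Caco-2 cells (left) and mouse colonic epithelial cells (right). In Caco-2 cells EREG is 58.0% to 61.9% of AREG in WT, ΔDNMT3A and the libraries labelled DNMT3A2 and 23.1% to 24.8% in DNMT3A1; in mice it is 1.36% to 5.15% of Areg in fl/fl and 6.30% to 8.56% in Dnmt3aΔIEC.

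Clones of a tumour line can differ in copy number, so each gene was set beside the 25 tested genes on either side of it. In ΔDNMT3A against WT the median log2 fold change of the 50 neighbours was -0.00 for ERBB3, 0.03 for ERBB2, -0.01 for EGFR and -0.02 for HBEGF, with 15 or 16 of 50 neighbours called in each direction beside the 3 receptors. The genes nearest to ERBB2 were mixed there. PGAP3, which overlaps it, had -0.75, TCAP -0.56 and GRB7 -0.38, while MIEN1 had 0.03, STARD3 0.10 and GSDMB 0.31. Against ΔDNMT3A, PGAP3 had 0.46 in DNMT3A1 and -0.54 in the libraries labelled DNMT3A2, beside the 0.42 and -0.09 of ERBB2. The neighbourhood of ERBB3 did move in the libraries labelled DNMT3A2. There 37 of 50 neighbours were lower and 2 higher than in ΔDNMT3A, with a median of -0.44, while ERBB3 itself was 0.62 higher. Between the isoform lines 41 of those neighbours were higher in DNMT3A1, with a median of 0.48 beside the 0.45 of ERBB3. Against WT, 37 of them were lower in the libraries labelled DNMT3A2, with a median of -0.37 beside the -0.51 of ERBB3. Around HBEGF, 29 of 50 genes were lower in DNMT3A1 than in WT (median -0.26, HBEGF -0.47) and 26 of 50 were higher in the libraries labelled DNMT3A2 than in ΔDNMT3A (median 0.19, HBEGF -0.74). Between the isoform lines 32 of 50 were lower in DNMT3A1, and their median of -0.42 was farther from 0 than the -0.22 of HBEGF. Copy number was not tested.

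Beside EREG and AREG the medians of the 50 neighbours were 0.05 and 0.06 in ΔDNMT3A, 0.09 and 0.06 in DNMT3A1 against ΔDNMT3A, and 0.01 for both in the libraries labelled DNMT3A2 against ΔDNMT3A. The nearest tested gene upstream of EREG, MTHFD2L, an enzyme of mitochondrial folate metabolism 62044 bases away, had log2 fold changes of -0.44, 0.16 and 0.40 in these 3 comparisons. The nearest tested gene beyond AREG, ENSG00000249942, lies 97575 bases from it on the other strand and had 1.21, -1.27 and -0.88. Its level was low, 0.304 CPM in WT on average beside 9.59 CPM for MTHFD2L. PARM1, farther out beyond BTC, lies 478086 bases from AREG and had -0.32, -0.22 and -0.64. In the libraries labelled DNMT3A2 against WT the medians of the 50 neighbours were 0.19 beside EREG (0.90) and 0.20 beside AREG (0.87). Of these neighbours 24 were higher and 16 lower for EREG, and 25 and 15 for AREG. BTC and EPGN lie in the same stretch, EPGN 49836 bases before EREG and BTC 289750 bases after AREG, and stayed close to or under the floor in all 4 lines. BTC was tested in 3 comparisons and passed the threshold in none, with log2 fold changes of 0.17, 0.30 and -0.13 and adjusted p of 0.723, 0.479 and 0.782 from edgeR, Benjamini-Hochberg. It was too low to test against WT, where it had 0.156 CPM on average (3 to 8 counts). In the libraries labelled DNMT3A2 it had 0.348 CPM (5 to 14 counts), without overlap with WT. ΔDNMT3A and DNMT3A1 overlapped with WT.

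**Figure D4:**
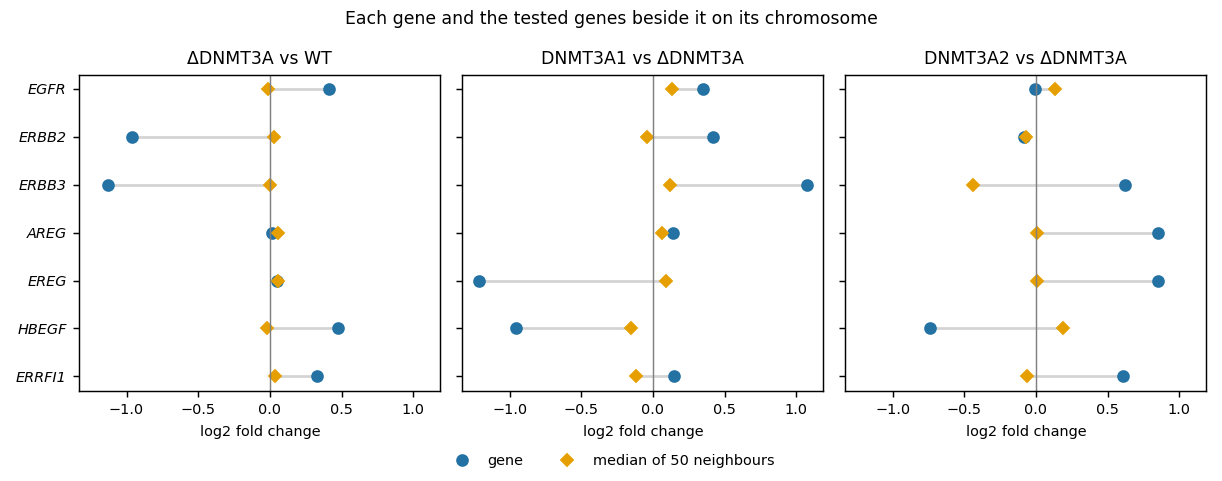
Log2 fold change of each gene (circles) and the median of the 50 tested genes beside it on its chromosome (diamonds) in ΔDNMT3A against WT, DNMT3A1 against ΔDNMT3A and the libraries labelled DNMT3A2 against ΔDNMT3A. The medians lie between -0.15 and 0.19 except beside ERBB3 in the libraries labelled DNMT3A2, where the median is -0.44 and ERBB3 is at 0.62.

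Genes whose profile was most like a member's were found by the root mean square difference of mean log2 CPM in ΔDNMT3A, DNMT3A1 and the libraries labelled DNMT3A2, each relative to WT, over 13759 other genes of at least 1 CPM. This is a description over 4 groups. For ERBB3 they were N4BP2L1 (difference 0.09), CCDC183 (0.10) and OLMALINC (0.10). For ERBB2 they included GARNL3 (0.01) and ENSG00000270157 (0.06). For ERRFI1 they were RNVU1-30 (0.02), TSHZ1 (0.03) and PDP1 (0.05). Within the family the closest pair was AREG and ERRFI1, at 0.26, and the next was EGFR and ERRFI1, at 0.35.

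The wider pathway was described from lists of 71 other genes. In ΔDNMT3A against WT 64 of them were tested, 27 were higher and 20 lower, or 73.4% called beside 62.2% of all genes, which were not matched to them by level. The median log2 fold change was 0.06, and that of all genes was -0.00. Among genes of ligand release, the sheddase ADAM17 fell from 88.2 ± 1.68 to 51.2 ± 2.59 CPM (SD, n = 4 each; log2 fold change -0.80, adjusted p = 1.09e-15). TIMP3, an inhibitor of ADAM17, rose from 44.8 ± 1.28 to 106 ± 10.2 CPM (1.23, adjusted p = 1.81e-16). These were the 2 genes called among the 6 of that list that were tested, from edgeR, Benjamini-Hochberg.

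The counts of the lists that follow stand beside 31.2% of all genes higher and 31.0% lower in ΔDNMT3A against WT. Counts of 4 higher and 4 lower are near these shares. Of 11 feedback regulators of ERK, 4 were higher and 4 lower in ΔDNMT3A, and the 3 largest changes were in ERK phosphatases. DUSP6 rose from 27.5 ± 0.876 to 58.4 ± 3.49 CPM (SD, n = 4 each; log2 fold change 1.08, adjusted p = 1.94e-16), DUSP5 by 1.36 (adjusted p = 3.18e-12) and DUSP4, at 0.837 CPM in WT, by 1.53 (adjusted p = 1.17e-07, same edgeR test). Of 11 transcripts known as outputs of ERK, 7 were higher and 2 lower. EGR1 and IER3 were each 0.48 higher, and ETV4 was lower (log2 fold change -0.46). Of 12 other negative regulators of the receptors, 4 were higher and 4 lower. LRIG1 and LRIG3, transmembrane proteins of which LRIG1 promotes degradation of family receptors, were lower (log2 fold changes -0.48 and -0.56), and SH3KBP1, an adaptor in receptor internalisation, was 0.48 higher.

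Of 17 adaptors and RAS-ERK components, 10 were higher and 5 lower, with PLCG1 and BRAF each at -0.38, beside the same 31.2% and 31.0% of all genes. Of 7 PI3K-AKT genes, 1 was higher and 4 lower, with AKT1 at -0.33 and PIK3R1 at -0.23. All of these named genes passed the threshold. The family members outside the 10 genes (EGF, ERBB4 and NRG1 to NRG4) were too low to test in ΔDNMT3A against WT, and of them EGF was called higher in DNMT3A1 than in WT, at 0.306 to 0.592 CPM against 0.0598 to 0.326 CPM with overlap (adjusted p = 0.00392).

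The ERK lists were counted in the isoform lines too. In the libraries labelled DNMT3A2 against WT, 9 of 10 tested ERK feedback genes were higher and 1 lower, with a median of 0.42, and 8 of 10 ERK output genes were higher and 1 lower, with a median of 0.46, beside 34.3% of all genes higher and 34.4% lower. In DNMT3A1 against WT the counts were 7 higher and 3 lower of 11 (median 0.28), and 4 higher and 5 lower of 10 (median -0.04), beside 32.6% of all genes higher and 32.7% lower. In DNMT3A1 against the libraries labelled DNMT3A2, 8 of 10 ERK output genes and 6 of 10 feedback genes were lower, beside 33.9% of all genes. In each of these lists 2 genes were higher, beside 34.5% of all genes. EGR1 (log2 fold change 0.54) and DUSP6 (0.73) were among those higher in DNMT3A1. Against ΔDNMT3A, 7 of 10 feedback genes were higher and 2 lower in the libraries labelled DNMT3A2 (median 0.22), with DUSP6 (-0.70) and DUSP5 (-1.08) lower. Of 11 output genes 5 were higher and 2 lower there (median 0.06), beside 33.8% and 34.1% of all genes. In DNMT3A1 against ΔDNMT3A the feedback counts were 5 and 2 of 10 (median 0.11). The output counts were 4 and 7 of 11 (median -0.18), beside 30.4% and 30.3% of all genes. Over all 71 genes, 82.5% of 63 tested were called in DNMT3A1 against ΔDNMT3A, 81.0% of 63 in the libraries labelled DNMT3A2 against ΔDNMT3A, 75.0% of 64 and 85.2% of 61 for the same lines against WT, and 79.0% of 62 between the isoform lines, each above the share of all genes given before. The share called depends on level: in ΔDNMT3A against WT it was 62.2% of all genes past the filter and 31.6% with no filter. The lists were not set beside genes of like level, so the higher shares are not read as a result about the pathway. ADAM17 was 0.27 and 0.90 higher in DNMT3A1 and in the libraries labelled DNMT3A2 than in ΔDNMT3A. TIMP3 was 0.21 higher in the former, and its log2 fold change in the latter was -1.09.

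Markers of differentiation and of other cells moved between the lines too, and their part in these results was not tested. KRT20, a marker of mature colonocytes, was at 1.03 ± 0.320 CPM in WT and higher in ΔDNMT3A, at 16.1 ± 1.17 CPM. The 6 colonocyte genes summed to 4.94 to 5.65 CPM in WT and 19.3 to 21.3 CPM in ΔDNMT3A, where most of the sum was KRT20. DNMT3A1 had 6.20 to 6.31 CPM, and there were 7.79 to 9.43 CPM in the libraries labelled DNMT3A2. Of the 4 colonocyte genes tested in ΔDNMT3A against WT, KRT20 and CEACAM1 were higher, beside 31.2% of all genes. The other 2 did not pass the threshold. LGR5, a stem cell receptor, fell from 34.7 ± 2.12 to 6.54 ± 0.359 CPM in ΔDNMT3A. AXIN2, a target of Wnt signalling, was at 38.7 CPM in WT, 47.2 in ΔDNMT3A and 36.7 in DNMT3A1 on average, and at 93.4 CPM in the libraries labelled DNMT3A2 (log2 fold change 1.25 against WT, adjusted p = 1.51e-24, edgeR, Benjamini-Hochberg), where AREG and EREG were highest. LGR5 was below WT in the same libraries, at 18.4 CPM on average (log2 fold change -0.92), and at 18.6 CPM in DNMT3A1. Of 5 tested genes of the stem cell list, which holds AXIN2 and LGR5, 3 were higher and 2 lower in the libraries labelled DNMT3A2 than in WT. MKI67 was the other lower gene (-0.39). Of all genes 34.3% were higher and 34.4% lower. The 6 goblet cell genes, mostly AGR2, summed to 154 to 166 CPM in WT and 249 to 268 CPM in ΔDNMT3A. They summed to 287 to 308 CPM in DNMT3A1, where EREG was lowest, and 153 to 158 CPM in the libraries labelled DNMT3A2. Of the 6 goblet cell genes only 2 were tested in ΔDNMT3A against WT, and they moved in opposite directions. The log2 fold change was 0.72 for AGR2 and -0.58 for TFF3 (adjusted p = 2e-16 and 4.5e-05, edgeR, Benjamini-Hochberg). The sum of 9 immune genes was 6.83 to 7.69 CPM in WT and 19.7 to 22.4 CPM in ΔDNMT3A, of which CSF1R was 4.85 and 17.7 CPM on average. The sum of 10 stromal genes was 194 to 201 CPM in WT and 159 to 173 CPM in ΔDNMT3A, mostly PDGFRA.

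In the mouse, the question was whether the family changed when Dnmt3a was deleted in intestinal epithelium. None of the 9 family genes tested passed the threshold in Dnmt3aΔIEC against fl/fl, where 101 of 14626 genes (0.691%) did, 0.602% higher and 0.0889% lower. At an unadjusted p under 0.05 edgeR gave 0 of the 9, and DESeq2 called 0 of the 9. The groups overlapped for all 9, beside 10.3% of genes whose groups did not. Of the 67 other pathway genes tested edgeR called 0 and gave 7 an unadjusted p under 0.05, all lower in Dnmt3aΔIEC. The share of all genes under that unadjusted p was not determined, so the 7 are not read as a change of the pathway. DESeq2 called 2 of the 67, beside 2.21% of 15904 genes. They were Epha2 (log2 fold change -0.76, adjusted p = 0.00696) and Fosl1 (-0.65, adjusted p = 0.0378). In bulk samples fewer cells of a type and less RNA per cell cannot be told apart.

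The order of levels in mouse epithelium differed from that in Caco-2 cells. Erbb3 (210.0 ± 28.4 CPM per kilobase in fl/fl), Areg (207 ± 27.6) and Hbegf (177 ± 21.7) were highest, with overlapping ranges. Erbb2 (111 ± 20.9) and Errfi1 (106 ± 5.36) followed with overlapping ranges. Egfr (10.8 ± 2.4999) and Tgfa (6.47 ± 0.650) came next, above Ereg (1.98 ± 1.05), Btc (0.825 ± 0.0988) and Epgn (0.134 ± 0.0887; all SD, n = 4).

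Erbb3 had 1218, 1352, 1046 and 1437 CPM in fl/fl and 1110.2, 1243, 1734 and 1337 CPM in Dnmt3aΔIEC. The log2 fold change was 0.10 (95% interval -0.26 to 0.47, adjusted p = 0.823, edgeR, Benjamini-Hochberg). Erbb2 had 538, 618, 448 and 702 CPM in fl/fl and 531, 643, 929.8 and 636 CPM in Dnmt3aΔIEC. Replicate 3 of Dnmt3aΔIEC was the highest for both receptors. The log2 fold change of Erbb2 was 0.25 (95% interval -0.17 to 0.67, adjusted p = 0.59; 0.07 without Dnmt3aΔIEC replicate 3) and that of Egfr -0.13 (95% interval -0.49 to 0.24, adjusted p = 0.772, same test).

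Among the ligands, Areg and Ereg had the values farthest from no change, in opposite directions. Areg had 266, 227, 291 and 219.6 CPM in fl/fl and 147, 162, 153 and 297 CPM in Dnmt3aΔIEC. Replicate 4 of Dnmt3aΔIEC was the highest of all 8 mice and the other 3 were the lowest. The log2 fold change was -0.40 (95% interval -0.88 to 0.07, adjusted p = 0.431, edgeR, Benjamini-Hochberg), and without that mouse -0.70 (adjusted p = 0.0478). Ereg had 13.7, 3.10, 7.71 and 8.18 CPM in fl/fl and 9.28, 13.9, 10.5 and 23.7 CPM in Dnmt3aΔIEC, where the same replicate 4 was highest. The log2 fold change was 0.81 (95% interval -0.08 to 1.69, adjusted p = 0.395, same test) and 0.45 without replicate 4 (adjusted p = 0.684).

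Hbegf, Tgfa and Btc had close means in the 2 groups. Hbegf had 419 ± 51.4 CPM in fl/fl and 417 ± 60.3 CPM in Dnmt3aΔIEC, Tgfa 41.99 ± 4.22 and 42.6 ± 3.94 CPM, and Btc 3.73 ± 0.447 and 3.67 ± 0.398 CPM (SD, n = 4 each). Their 95% intervals on the log2 scale were -0.30 to 0.29, -0.21 to 0.25 and -0.37 to 0.33. Epgn was at 0 to 10 counts per mouse and was not tested. Errfi1 had 383, 394, 352 and 391.6 CPM in fl/fl and 243, 313, 325 and 440.0 CPM in Dnmt3aΔIEC, wider in the deleted mice, with a log2 fold change of -0.20 (95% interval -0.55 to 0.15, adjusted p = 0.598, edgeR, Benjamini-Hochberg). Without Dnmt3aΔIEC replicate 4 it was -0.37 (unadjusted p = 0.0143, adjusted p = 0.286), and without replicate 1 of that group -0.08 (adjusted p = 0.813).

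**Figure D5:**
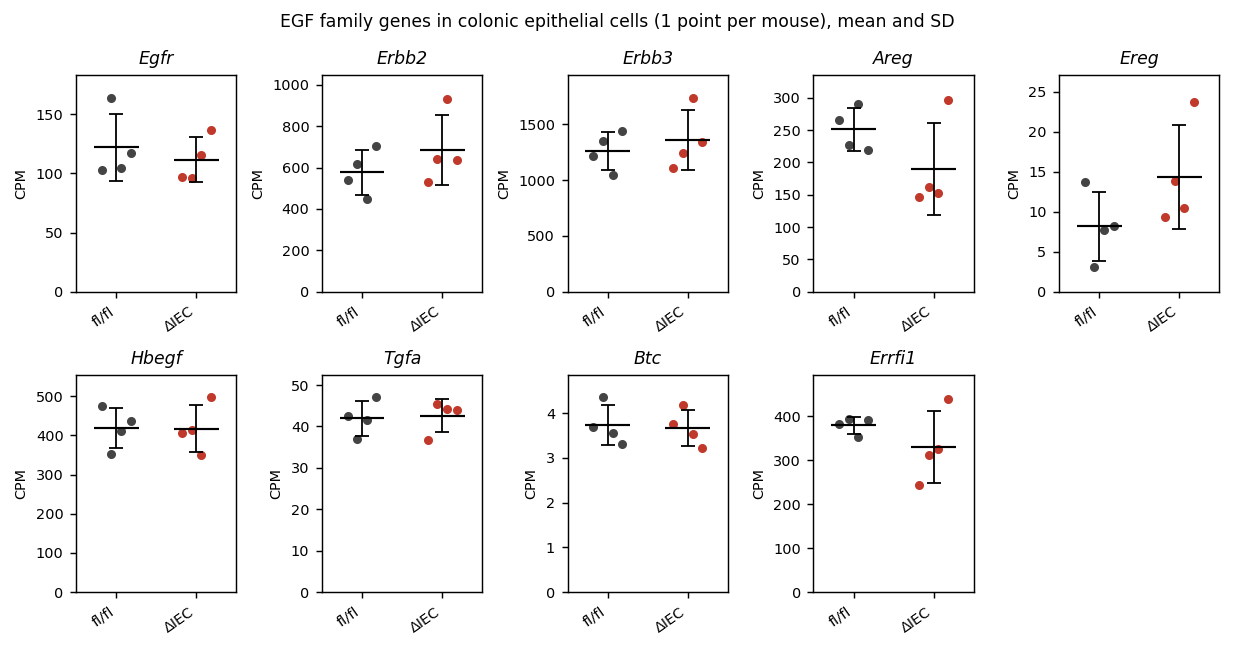
Levels in CPM (vertical axes, each starting at 0) of 9 EGF family genes in colonic epithelial cells of fl/fl and Dnmt3aΔIEC mice; points are mice, horizontal lines means and bars SDs, n = 4 each. The groups overlap for all 9 genes, and for Areg 3 Dnmt3aΔIEC mice lie at 147 to 162 and the fourth at 297.

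Values that moved with the mouse groups or with replicate 4 are given here, and their part in the results was not tested. Of 6 tested tuft cell markers 5 were higher in Dnmt3aΔIEC, with summed levels of 112 to 141 CPM against 33.6 to 43.8 CPM in fl/fl, Dclk1 and Trpm5 among them (log2 fold changes 1.84 and 1.79, adjusted p = 8.7e-05 and 0.000242, edgeR, Benjamini-Hochberg). The summed level of 9 immediate early genes, which rise quickly when tissue is handled, was 5079 to 6066 CPM in fl/fl, 5514 to 5850 CPM in 3 Dnmt3aΔIEC mice and 7023 CPM in replicate 4. The same replicate had the highest sum of epithelial markers, 19375 CPM against 13527 to 17139 CPM in the others. Summed immune markers were 52.6 to 70.4 CPM in fl/fl and 49.4 to 70.5 CPM in Dnmt3aΔIEC, mostly Kit, with Cpa3 at 0. Summed stromal markers were 18.4 to 26.1 and 16.0 to 20.9 CPM.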

How the data were processed

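RNA of Caco-2 cells (2 × 75 bases) and mouse colonic epithelial cells (2 × 50 bases) was sequenced with a stranded total RNA protocol. The submitters' processing notes name Trim Galore 0.4.4, STAR 2.5.2b, featureCounts 1.5.2 and the builds GRCh38 and GRCm38. What the authors deposited are unnormalized counts for each gene. Per the file headers the human counts are reverse-stranded (featureCounts 1.5.2) and the mouse counts unstranded (1.6.4), so reads of overlapping antisense genes cannot be told apart in mice.

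Groups and replicate numbers came from the labels. Human identifiers were matched to symbols (56948 of 58051). Each comparison used its 2 groups alone with edgeR 4.0.16 (R 4.3.3): filterByExpr, TMM, quasi-likelihood F test, Benjamini-Hochberg adjustment over all genes tested and a threshold of 0.05. Between replicates the chi-square of counts over its degrees of freedom was 1.83 to 5.10 in Caco-2 cells and 9.98 to 80.9 in mice, so no library was a copy. Levels are CPM on TMM sizes, per kilobase of exon between genes. The 10 genes were chosen by name, and of each other list at most the 3 called genes of at least 1 CPM with the largest change were named, plus EGF and ERBB4. A few genes that this rule names are not reported here. Members and lists were chosen with earlier results of these data known. Alternatives were RLE and upper-quartile scaling, DESeq2 1.42.0 (the study's tool), no filter, all Caco-2 lines in 1 fit, a replicate block, a log2 fold limit of 1, a window of 10 neighbours on each side, each library left out and, added after seeing the data, removal of the trend with GC content. The fits were tested on simulated counts. Promoter sequences are RefSeq's on GRCh38.p14. Methylation data were not used here.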

Additional observations from a re-analysis of the deposited data

Results flagged for a closer look

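Of 39 sets of 4 libraries, each 1 gene in 1 group, 2 held a library far from the other 3 by Dixon's test, which flags about 1 in 20 by chance. Areg in Dnmt3aΔIEC replicate 4 was at 297 CPM, and the other 3 mice were at 154 ± 7.65 CPM (SD). The gap to the nearest mouse was 0.898 of the range, over the critical value for 4 samples. Its values for other lists stand beside the Areg result. EREG in WT replicate 2 was at 112 CPM, with a gap of 0.842 of the range. The other WT libraries were at 105 to 107 CPM, and leaving that library out changed no EREG call.

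The isoform lines differed from each other in 7 genes, by edgeR with Benjamini-Hochberg adjustment. DNMT3A1 minus the libraries labelled DNMT3A2 was 0.35 for EGFR, 0.50 for ERBB2, 0.45 for ERBB3, -0.71 for AREG, -2.07 for EREG, -0.22 for HBEGF and -0.46 for ERRFI1 on the log2 scale. DNMT3A transcripts were not higher in the libraries labelled DNMT3A2 than in ΔDNMT3A, although the study reported the re-expressed protein by immunoblot. Each line is a clone, so the values above are differences between lines. The median of the 50 genes beside ERBB3 was 0.48 and of those beside HBEGF -0.42 in the same comparison, and the HBEGF call was lost under 2 alternatives.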

How the results depend on the processing

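Over the 38 differences of a member that passed the threshold, 547 of 550 values under the alternatives kept direction and call, none reversed and 3 lost the call: ERBB2 in the libraries labelled DNMT3A2 against ΔDNMT3A (-0.01 with the GC trend removed) and HBEGF in DNMT3A1 against the libraries labelled DNMT3A2 (-0.24 with DESeq2, -0.18 without DNMT3A1 replicate 2). With a log2 fold change of at least 1 required, 1 member was called in ΔDNMT3A against WT, 2 in DNMT3A1 against ΔDNMT3A, 0 in the libraries labelled DNMT3A2 against ΔDNMT3A, and 1 each in DNMT3A1 against WT, the libraries labelled DNMT3A2 against WT and between the isoform lines. The replicate numbers did not pair the Caco-2 libraries: over 21 same-numbered pairs the correlation of deviations from the group means was -0.033 to 0.055. With the replicate block no member's call changed, and BTC, never past the threshold, turned to -0.047 (DNMT3A1 against ΔDNMT3A) and 0.084 (between the isoform lines). In mice DESeq2 called 352 genes against edgeR's 101, and without each mouse edgeR called 45 to 126 genes and 0 to 1 members. With Dnmt3aΔIEC replicate 4 left out Areg was called (-0.70). Of differences never past the threshold, Tgfa turned to -0.000709 with the GC trend removed. Leaving out 1 library gave BTC values of -0.154 to 0.394 (DNMT3A1 against ΔDNMT3A) and -0.457 to 0.0993 (between the isoform lines), and EGFR -0.0315 to 0.016 (libraries labelled DNMT3A2 against ΔDNMT3A). In mice it gave -0.241 to 0.0441 for Egfr, 0.0652 to 0.354 for Erbb2, -0.371 to -0.08 for Errfi1, -0.0382 to 0.187 for Erbb3, -0.0398 to 0.0851 for Tgfa, -0.105 to 0.0653 for Hbegf and -0.0876 to 0.0583 for Btc, none past the threshold. No paired analysis was possible in mice because their labels give no shared replicate numbers. Depth limits TGFA, BTC and EPGN in Caco-2 cells, where a change near the floor was not detectable.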

Other observations

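In mice the CPM of Ereg as a share of Areg was 5.15%, 1.36%, 2.65% and 3.72% in fl/fl and 6.30%, 8.56%, 6.82% and 7.98% in Dnmt3aΔIEC, without overlap, where neither gene passed the threshold alone. The log2 ratio was 1.35 higher in Dnmt3aΔIEC (exact two-sided permutation p = 0.0286, the smallest that 4 against 4 allows). Without replicate 4 of Dnmt3aΔIEC it was 1.31 higher (exact two-sided permutation p = 0.0571). The ratio was chosen after its values were seen, so the p describes a pattern already noticed. Groups without overlap always give the smallest p of this test, so neither p adds to the values. Of single genes, 10.3% had groups that did not overlap between these mice, and the share of such ratios was not determined.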
